A study of Mus musculus with 58 samples.

Results

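The colony-stimulating factor axis was taken as 6 genes chosen by symbol: Csf1 and Il34, which encode the CSF1R ligands CSF1 and IL-34, their receptor Csf1r, the receptor chains Csf2ra and Csf2rb, and the receptor Csf3r. All 6 were found in the table of 15171 genes, and all 6 were kept by the filter on low counts. The rule used the symbols and no measured value, but the genes and the lists were chosen with earlier results of these data known.

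In the GENCODE M21 annotation of GRCm38, the build of the counts, Csf1 lies at chr3:107741048-107760469 (minus strand, 9 exons), Il34 at chr8:110741829-110805924 (minus strand, 7 exons) and Csf1r at chr18:61100598-61132149 (plus strand, 22 exons). Csf2ra lies at chr19:61223957-61228429 (minus strand, 12 exons), Csf2rb at chr15:78325752-78353847 (plus strand, 14 exons) and Csf3r at chr4:126024550-126044440 (plus strand, 15 exons). The counts are per gene and do not separate exons, introns or untranslated parts.

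CSF1R is a receptor tyrosine kinase that microglia and other tissue macrophages need for their survival and division, and either ligand can engage it. In the brain, IL-34 is made mainly by neurons and CSF1 mainly by glia, so the ligands reach the receptor from different cells. Csf2ra and Csf2rb encode the ligand-binding alpha chain and the signalling common beta chain of the GM-CSF receptor, the beta chain also serving IL-3 and IL-5. Csf3r encodes the G-CSF receptor, known above all from neutrophils and their precursors.

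RNA from the cortex and hippocampus at the injury site, frozen together, was sequenced in 58 C57BL/6 mice, 1 library per mouse. All mice were homozygous for human APOE3 or APOE4 by targeted replacement, and carried either both functional copies of Abca1, the ATP-binding cassette transporter that lipidates APOE, or 1 copy, in every cell type. At 3 months of age they received a craniotomy over the left parietal cortex with a controlled cortical impact (TBI) or without it (sham), and tissue was taken after PBS perfusion 14 days later. The groups held 8 sham and 8 TBI E3/Abca1+/+ mice, 7 and 6 E3/Abca1+/- mice, 7 and 7 E4/Abca1+/+ mice, and 7 and 8 E4/Abca1+/- mice, of both sexes. The comparisons ask how injury, Abca1 copy number and APOE isoform relate to the level of each transcript.

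Library totals ran from 4421308 to 37877346 counts, and Abca1+/- libraries were deeper, with a median of 18871446 counts against 8350020 in Abca1+/+ libraries. Abca1 was at medians of 47.7 and 35.3 CPM (CPM being the read count scaled to a common library size with edgeR's TMM factors) in E3/Abca1+/+ and E3/Abca1+/- sham mice and at 48.9 and 35.2 CPM in the E4 sham groups. After TBI the Abca1 medians were 147 and 104 CPM in E3 and 121 and 130.0 CPM in E4 mice, so Abca1+/- mice had the lower median in 3 of the 4 pairs and not among injured E4 mice. Y-linked genes matched the sex label in 58 of 58 mice. Microglia markers were present in every group and the summed level of 10 of them ran from 293 to 436 CPM in sham and from 492 to 1071 CPM in TBI mice. Of 10 neutrophil markers, S100a8 and S100a9 were in the table, and the other 8 were not analysed here. Mouse 8 of the E4/Abca1+/- TBI group had the lowest mean log2(CPM + 1) over 10 hippocampus markers, 2.44 against a median of 4.24 in TBI mice, and mouse 2 of the E4/Abca1+/- sham group had the highest microglia marker mean of the sham mice, 5.03 against a median of 4.69.

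Injury was accompanied by higher levels of 5 of the 6 genes in each of the 4 genotypes, and Il34 was the gene that did not pass the test in any of them. Csf2rb and Csf3r changed most, with TBI means 3.78 to 5.50 times and 3.02 to 3.99 times the sham means. Csf1 and Csf1r were 1.66 to 2.15 times higher, and Csf2ra 1.39 to 1.73 times. Calls were made with edgeR's quasi-likelihood test at a Benjamini-Hochberg adjusted p of 0.05 over all 15171 genes. Of all genes tested, 12.5% were called higher and 10.8% lower in E3/Abca1+/+, 13.7% and 10.1% in E3/Abca1+/-, 9.08% and 4.98% in E4/Abca1+/+, and 17.7% and 16.3% in E4/Abca1+/- mice. None of the 6 genes was called lower. In the fit that averaged TBI against sham over the 4 genotypes, again 5 of 6 were called higher, beside 29% of all genes higher and 24.3% lower.

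**Figure D1:**
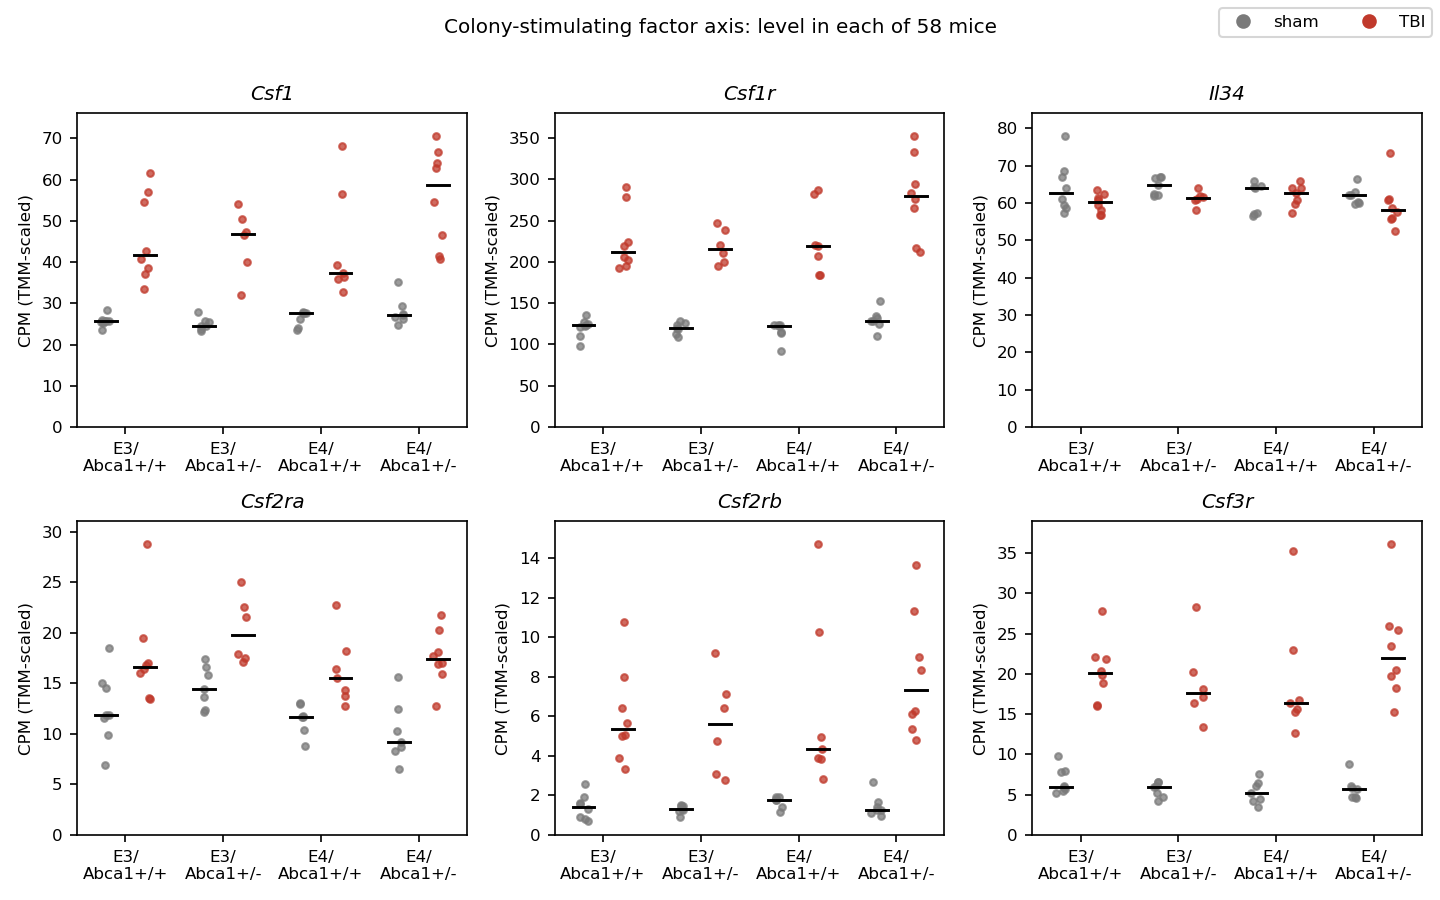
Level of each gene in every mouse, as CPM on a linear axis from 0, by genotype, with sham in grey and TBI in red; horizontal bars are group medians. TBI and sham points do not overlap within any genotype for Csf1, Csf1r, Csf2rb and Csf3r, overlap partly for Csf2ra and overlap throughout for Il34. The share of all genes without such overlap was not counted, so how unusual it is cannot be read from these values.

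Of the ligands, Csf1 rose with injury. Each group is given by its lowest, median and highest mouse. In E3/Abca1+/+ mice Csf1 was at 23.6, 25.7 and 28.4 CPM in sham and 33.4, 41.8 and 61.5 CPM in TBI mice. For Csf1 in E3/Abca1+/- mice the values were 23.2, 24.5 and 27.8 CPM in sham and 32.0, 46.9 and 54.0 CPM in TBI mice. In both E3 genotypes every TBI mouse was above every sham mouse. In E4/Abca1+/+ mice Csf1 was at 23.5, 27.6 and 27.9 CPM in sham and 32.7, 37.4 and 68.1 CPM in TBI mice. For Csf1 in E4/Abca1+/- mice the values were 24.8, 27.1 and 35.1 CPM in sham and 40.7, 58.6 and 70.5 CPM in TBI mice. The E4 groups did not overlap either, and the spread was wider after injury, with a coefficient of variation of 5.17% to 12.0% in the sham groups and 17.5% to 30.3% in the TBI groups. The share of all genes separating sham from TBI mice in this way was not counted, which holds for each gene below too. The log2 difference of TBI against sham in Csf1 was 0.82 ± 0.10 (SE, adjusted p = 7.2e-06) in E3/Abca1+/+ and 0.85 ± 0.094 (SE, adjusted p = 6.8e-06) in E3/Abca1+/- mice. It was 0.72 ± 0.14 (SE, adjusted p = 0.00249) in E4/Abca1+/+ and 0.96 ± 0.12 (SE, adjusted p = 1.18e-05) in E4/Abca1+/- mice. All 4 adjusted p-values came from edgeR's quasi-likelihood test with Benjamini-Hochberg adjustment, as do those that follow. Averaged over genotypes, Csf1 was 0.85 (95% confidence interval 0.72 to 0.98, adjusted p = 4.21e-17) higher on the log2 scale.

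Il34, the neuronal ligand, did not pass the test in any genotype. In E3/Abca1+/+ mice Il34 was at 57.3, 62.6 and 77.9 CPM in sham and 56.9, 60.3 and 63.6 CPM in TBI mice. For Il34 in E3/Abca1+/- mice the values were 61.9, 64.9 and 67.0 CPM in sham and 58.0, 61.5 and 64.0 CPM in TBI mice. TBI and sham mice overlapped in both E3 genotypes. In E4/Abca1+/+ mice Il34 was at 56.5, 64.0 and 65.9 CPM in sham and 57.3, 62.8 and 66.0 CPM in TBI mice. For Il34 in E4/Abca1+/- mice the values were 59.9, 62.1 and 66.5 CPM in sham and 52.6, 58.2 and 73.5 CPM in TBI mice. They overlapped in both E4 genotypes as well, and the highest Il34 value of the TBI mice, 73.5 CPM, belonged to mouse 8 of the E4/Abca1+/- group. The log2 difference of TBI against sham in Il34 was -0.11 ± 0.058 (SE, adjusted p = 0.192) in E3/Abca1+/+ and -0.073 ± 0.035 (SE, adjusted p = 0.156) in E3/Abca1+/- mice. It was 0.015 ± 0.051 (SE, adjusted p = 0.892) in E4/Abca1+/+ and -0.083 ± 0.057 (SE, adjusted p = 0.287) in E4/Abca1+/- mice. The average over genotypes was -0.050 (95% confidence interval -0.10 to 0.00075, adjusted p = 0.0915). Without that mouse, Il34 was called lower in E4/Abca1+/- TBI mice, at -0.13 (adjusted p = 0.0176), and in the average, at -0.062 (adjusted p = 0.0175), the latter also at -0.064 (adjusted p = 0.0334) with DESeq2's size factors and at -0.059 (adjusted p = 0.0397) with DESeq2's Wald test. Of 10 neuron markers, 4 to 10 were called lower per genotype, beside 4.98% to 16.3% of all genes. The median log2 difference of the markers was -0.20 in the average. Il34 differed from this median in sign only in E4/Abca1+/+ mice, at 0.015 where the marker median was -0.17. The part of neurons in the Il34 values was not tested.

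With Csf1 higher and Il34 not called, the ratio of the ligand transcripts was lower in every TBI group than in its sham group. Per kilobase of coding length, Il34 stood at 91.1 ± 9.67 CPM per kb and Csf1 at 15.6 ± 0.804 CPM per kb (mean ± SD, n = 8) in E3/Abca1+/+ sham mice. The ratio of Il34 to Csf1 per length was 5.87 ± 0.631, 6.09 ± 0.387, 5.49 ± 0.498 and 5.24 ± 0.616 (mean ± SD) in the E3/Abca1+/+, E3/Abca1+/-, E4/Abca1+/+ and E4/Abca1+/- sham groups. In the TBI groups, in the same order, it was 3.24 ± 0.786, 3.31 ± 0.759, 3.57 ± 0.911 and 2.63 ± 0.717. Within each genotype every TBI mouse had a lower ratio than every sham mouse, and Il34 remained the higher ligand per length in all 58 mice, the lowest ratio being 1.75 in an E4/Abca1+/- TBI mouse. The longest annotated transcripts in place of the coding length gave ratios from 2.60 to 6.03 for the 8 groups. The ratio holds no information that the genes' own values do not, and no further test was run on it.

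**Figure D2:**
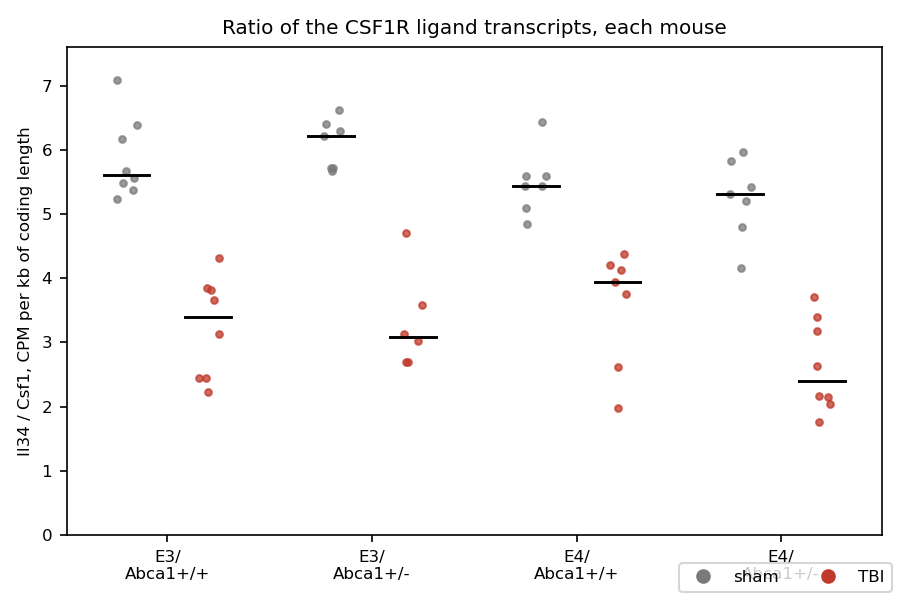
Ratio of Il34 to Csf1, both as CPM per kb of coding length, in every mouse on an axis from 0, with sham in grey, TBI in red and bars at group medians. Group medians lie between 5.31 and 6.22 in sham and between 2.40 and 3.94 in TBI mice.

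Csf1r, the receptor of both ligands, rose in every genotype. In E3/Abca1+/+ mice Csf1r was at 98.7, 123 and 135 CPM in sham and 192, 212 and 290.3 CPM in TBI mice. For Csf1r in E3/Abca1+/- mice the values were 109, 119 and 128 CPM in sham and 195, 215 and 247 CPM in TBI mice. The E3 groups did not overlap. In E4/Abca1+/+ mice Csf1r was at 92.4, 123 and 124 CPM in sham and 184, 219 and 287 CPM in TBI mice. For Csf1r in E4/Abca1+/- mice the values were 111, 128 and 153 CPM in sham and 212, 279.5 and 352 CPM in TBI mice. The E4 groups did not overlap, and the median of the E4/Abca1+/- TBI mice was the highest of the 8. The log2 difference of TBI against sham in Csf1r was 0.90 ± 0.084 (SE, adjusted p = 1.92e-07) in E3/Abca1+/+ and 0.87 ± 0.057 (SE, adjusted p = 4.99e-08) in E3/Abca1+/- mice. It was 0.95 ± 0.10 (SE, adjusted p = 2.45e-05) in E4/Abca1+/+ and 1.07 ± 0.10 (SE, adjusted p = 1.08e-06) in E4/Abca1+/- mice. Averaged over genotypes it was 0.96 (95% confidence interval 0.86 to 1.06, adjusted p = 8.33e-24). The 10 microglia markers were all called higher in each genotype, beside 9.08% to 17.7% of all genes. In the average fit the median log2 difference of the markers was 0.93, near that of Csf1r, but single markers ran from 0.40 to 1.54. In whole tissue, more cells of a type and more RNA per cell cannot be told apart, which holds for every transcript described here. Exons of Csf1r share 873 bases (15.1% of its exon bases) with Hmgxb3 on the opposite strand, and whether reads were counted by strand is not given in the sources used here. The log2 difference of Hmgxb3 averaged over genotypes was -0.12 ± 0.024 (SE, adjusted p = 3.63e-05). The part of reads from the shared bases in the Csf1r values was not tested.

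The GM-CSF receptor chains and the G-CSF receptor were the less abundant members. Csf2rb (chr15:78325752-78353847, plus strand, GENCODE M21 on GRCm38) has a near-copy, Csf2rb2 (chr15:78282507-78305721, minus strand), which in mice encodes a beta chain specific to IL-3. Their longest transcripts are identical at 4241 of 4545 aligned bases (93.3%) and their coding sequences at 2503 of 2628 (95.2%). The first 150 coding bases of each, in the sense direction, are shown because counts of these genes can be exchanged where reads cannot tell them apart; capitals mark the 6 bases that differ.
Csf2rb: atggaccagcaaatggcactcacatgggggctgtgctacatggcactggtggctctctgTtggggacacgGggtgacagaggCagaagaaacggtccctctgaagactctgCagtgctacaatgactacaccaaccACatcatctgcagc
Csf2rb2: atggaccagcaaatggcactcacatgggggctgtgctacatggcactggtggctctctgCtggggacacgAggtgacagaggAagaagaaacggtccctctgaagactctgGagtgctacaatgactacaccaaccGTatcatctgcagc
Of all 100-base windows of the Csf2rb transcript, 6.96% occur unchanged in Csf2rb2, and 18.4% of 50-base windows do. The split of counts between these genes is therefore uncertain.

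Csf2rb had the largest difference of the 6 genes and the lowest counts, from 3 to 66 reads per sham library and from 16 to 209 per TBI library. In E3/Abca1+/+ mice Csf2rb was at 0.685, 1.44 and 2.60 CPM in sham and 3.32, 5.38 and 10.8 CPM in TBI mice. For Csf2rb in E3/Abca1+/- mice the values were 0.903, 1.32 and 1.50 CPM in sham and 2.76, 5.60 and 9.19 CPM in TBI mice. The E3 groups did not overlap. In E4/Abca1+/+ mice Csf2rb was at 1.18, 1.80 and 1.93 CPM in sham and 2.83, 4.33 and 14.7 CPM in TBI mice. For Csf2rb in E4/Abca1+/- mice the values were 0.961, 1.28 and 2.69 CPM in sham and 4.79, 7.31 and 13.7 CPM in TBI mice. The E4 groups did not overlap, although the highest sham mouse, at 2.69 CPM, was mouse 2 of the E4/Abca1+/- group. The log2 difference of TBI against sham in Csf2rb was 2.01 ± 0.26 (SE, adjusted p = 8.92e-06) in E3/Abca1+/+ and 2.08 ± 0.26 (SE, adjusted p = 2e-05) in E3/Abca1+/- mice. It was 1.87 ± 0.34 (SE, adjusted p = 0.00135) in E4/Abca1+/+ and 2.42 ± 0.26 (SE, adjusted p = 2.63e-06) in E4/Abca1+/- mice. The average over genotypes was 2.11 (95% confidence interval 1.80 to 2.41, adjusted p = 7.71e-18). Csf2rb2 rose as well, with an average log2 difference of 1.87 ± 0.13 (SE, adjusted p = 8.89e-19), from a median of 1.38 CPM in sham to 4.82 CPM in TBI mice.

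Csf2ra, the alpha chain, changed least of the 5 genes that rose. In E3/Abca1+/+ mice Csf2ra was at 6.94, 11.9 and 18.5 CPM in sham and 13.5, 16.6 and 28.8 CPM in TBI mice. For Csf2ra in E3/Abca1+/- mice the values were 12.2, 14.4 and 17.4 CPM in sham and 17.1, 19.8 and 25.0 CPM in TBI mice. Sham and TBI mice overlapped in both E3 genotypes, and 2 of 8 E3/Abca1+/+ and 5 of 6 E3/Abca1+/- TBI mice were above all their sham mice. In E4/Abca1+/+ mice Csf2ra was at 8.76, 11.7 and 13.1 CPM in sham and 12.7, 15.6 and 22.8 CPM in TBI mice. For Csf2ra in E4/Abca1+/- mice the values were 6.56, 9.16 and 15.6 CPM in sham and 12.7, 17.4 and 21.7 CPM in TBI mice. The E4 groups overlapped too, with 6 of 7 and 7 of 8 TBI mice above every sham mouse. The log2 difference of TBI against sham in Csf2ra was 0.50 ± 0.17 (SE, adjusted p = 0.04) in E3/Abca1+/+ and 0.46 ± 0.11 (SE, adjusted p = 0.00478) in E3/Abca1+/- mice. It was 0.49 ± 0.12 (SE, adjusted p = 0.0129) in E4/Abca1+/+ and 0.76 ± 0.15 (SE, adjusted p = 0.000939) in E4/Abca1+/- mice. The average was 0.57 (95% confidence interval 0.41 to 0.73, adjusted p = 1.7e-08). The call in E3/Abca1+/+ mice was lost when all libraries were thinned to the lowest total (0.47, adjusted p = 0.0523), and when any 1 of TBI mice 4, 6, 7 or 8 or sham mice 1, 2, 3, 4 or 5 was left out, the adjusted p over the 16 leave-out fits running from 0.0160 to 0.0929 and the log2 difference from 0.37 to 0.59.

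Csf3r, the G-CSF receptor, rose in every genotype with no overlap, a separation whose share among all genes was not counted. In E3/Abca1+/+ mice Csf3r was at 5.25, 6.00 and 9.75 CPM in sham and 16.1, 20.1 and 27.8 CPM in TBI mice. For Csf3r in E3/Abca1+/- mice the values were 4.24, 5.93 and 6.62 CPM in sham and 13.3, 17.6 and 28.3 CPM in TBI mice. The lowest E3 TBI mouse, at 13.3 CPM, was above the highest E3 sham mouse, at 9.75 CPM. In E4/Abca1+/+ mice Csf3r was at 3.54, 5.24 and 7.59 CPM in sham and 12.7, 16.4 and 35.3 CPM in TBI mice. For Csf3r in E4/Abca1+/- mice the values were 4.61, 5.68 and 8.84 CPM in sham and 15.3, 22.0 and 36.1 CPM in TBI mice. The highest E4 sham mouse, at 8.84 CPM, was again mouse 2 of the E4/Abca1+/- group, and it too was below every TBI mouse. The log2 difference of TBI against sham in Csf3r was 1.64 ± 0.13 (SE, adjusted p = 2.97e-08) in E3/Abca1+/+ and 1.76 ± 0.16 (SE, adjusted p = 7.08e-07) in E3/Abca1+/- mice. It was 1.81 ± 0.22 (SE, adjusted p = 5.94e-05) in E4/Abca1+/+ and 1.97 ± 0.18 (SE, adjusted p = 7.49e-07) in E4/Abca1+/- mice. The average was 1.80 (95% confidence interval 1.62 to 1.99, adjusted p = 1.63e-23). Of the neutrophil markers, S100a8 and S100a9 summed to between 0 and 1.07 CPM in sham and between 0.289 and 17.9 CPM in TBI mice. Both were called higher in 3 genotypes and 1 of them in E4/Abca1+/+. Csf3r ran from 3.54 to 9.75 CPM in sham and from 12.7 to 36.1 CPM in TBI mice. These CPM are not scaled by length and do not rank the genes. The part of neutrophils in the Csf3r values was not tested.

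**Figure D3:**
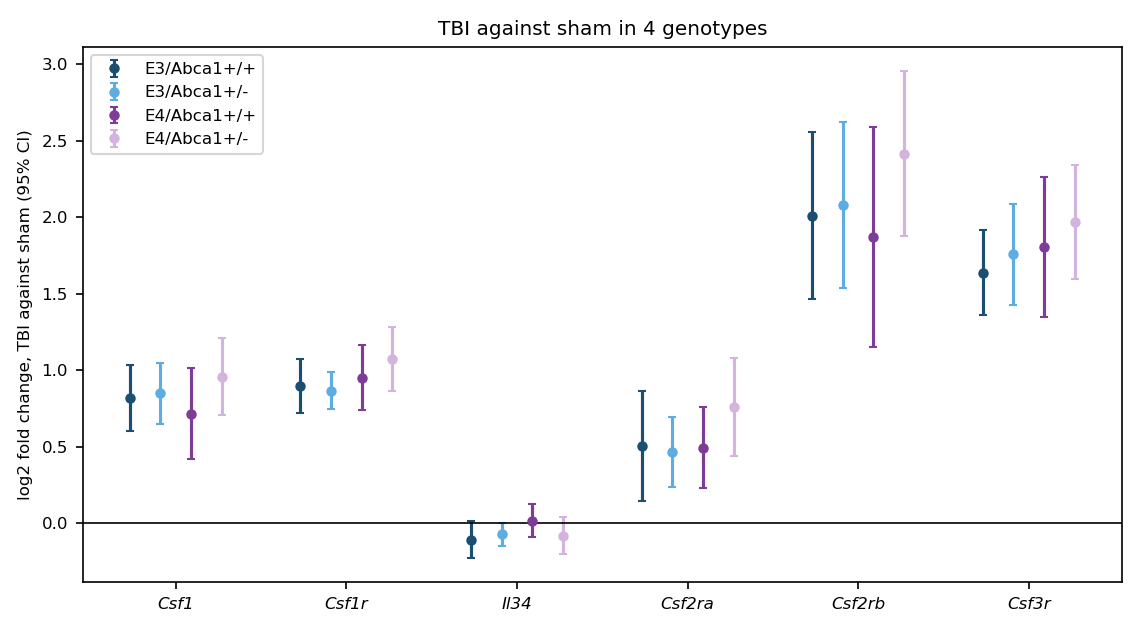
Log2 fold change of TBI against sham for the 6 genes in the 4 genotypes, with 95% confidence intervals from edgeR's quasi-likelihood fit; the line at 0 marks no difference. Il34 intervals include 0 in all 4 genotypes, and Csf2rb and Csf3r lie above 1 in all 4.

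Compared per kilobase, so that genes of unlike length can be ranked, Il34 and Csf1r headed the axis. In E3/Abca1+/+ sham mice the coding-length levels were 91.1 ± 9.67 CPM per kb for Il34, 41.1 ± 3.84 for Csf1r and 15.6 ± 0.804 for Csf1 (mean ± SD, n = 8). Csf2ra followed at 10.8 ± 3.01, Csf3r at 2.68 ± 0.628 and Csf2rb at 0.534 ± 0.238 CPM per kb. Neighbours in this order were separated by more than their SD, but on the longest transcripts Csf2ra (6.78 ± 1.90) and Csf1 (6.17 ± 0.319) did not differ beyond their spread. In E3/Abca1+/+ TBI mice Il34 stood at 85.1 ± 3.57 and Csf1r at 77.0 ± 12.9 CPM per kb, within their spread. In E4/Abca1+/- TBI mice they stood at 84.5 ± 8.93 and 95.2 ± 16.8 CPM per kb, again within their spread, while in E3/Abca1+/- TBI mice they stood at 87.0 ± 2.73 and 74.5 ± 7.08. Per kilobase of the longest transcript Csf1r was above Il34 in all 4 TBI groups, for example at 46.5 ± 4.41 against 34.1 ± 1.07 in E3/Abca1+/- and at 59.3 ± 10.5 against 33.2 ± 3.51 in E4/Abca1+/- mice.

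The regions just upstream of the annotated starts could be read for 3 of the 6 genes, Csf1, Csf3r and Csf2ra, from RefSeq's GRCm38.p6 models. The letters GAGGAA, the core bound by the myeloid factor PU.1 (encoded by Spi1), were searched on both strands in the 250 bases before each start, together with the cyclic AMP response element TGACGTCA and the AP-1 element TGANTCA, chosen with these promoters in view. GAGGAA is held by 23.3% of 32851 promoters, TGACGTCA by 1.55% and TGANTCA by 6.75%. The region of Csf2ra, which rose with injury and held the most matches, is shown in the direction of transcription, motif letters in capitals.
Csf2ra, chr19:61228419-61228668, minus strand: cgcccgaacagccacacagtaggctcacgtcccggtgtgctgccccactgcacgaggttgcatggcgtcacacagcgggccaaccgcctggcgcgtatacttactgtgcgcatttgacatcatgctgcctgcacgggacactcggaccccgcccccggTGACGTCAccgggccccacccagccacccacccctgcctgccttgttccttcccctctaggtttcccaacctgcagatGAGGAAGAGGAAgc
GAGGAA stands in tandem at bases -14 to -9 and -8 to -3 of Csf2ra, which also holds TGACGTCA at -92 to -85, and at -86 to -81 of Csf3r, counted from the RefSeq starts. The GENCODE models given above start within both windows, upstream of the RefSeq starts. The Csf3r match therefore lies in a first exon of GENCODE, and in Csf2ra the GAGGAA nearest the start lies inside the GENCODE gene and the other lies across its start. Csf1 held none of the 3 in this window, and no region held TGANTCA. A match is a description of the letters and shows no binding.

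Genes that carry the signal of these receptors were read from lists. Of 19 genes of CSF1R signalling, 10 were called higher and 0 lower in each genotype, with median log2 differences of 0.29 to 0.41 beside medians of all genes between -0.0043 and 0.0082. The largest mean changes among those called in all 4 genotypes were in Tyrobp, the adaptor of myeloid receptors, at 1.99 on the log2 scale, Ptpn6, a phosphatase that dampens receptor signals, at 1.83, and Vav1, a guanine exchange factor of blood cells, at 1.53. Of 14 transcription factors of myeloid cells, 10 were called higher in every genotype and 1, 1, 0 and 1 lower in E3/Abca1+/+, E3/Abca1+/-, E4/Abca1+/+ and E4/Abca1+/- mice. Their medians ran from 0.49 to 0.77, and they were led by Runx1 (1.85), Irf8 (1.70) and Spi1 (1.63), the last encoding PU.1, a known activator of Csf1r. Of all genes, 9.08% to 17.7% were called higher and 4.98% to 16.3% lower per genotype.

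The kinases, transducers and inhibitors downstream of the common beta chain and CSF3R moved less. Of 13 such genes 5, 4, 3 and 5 were called higher and 0, 1, 0 and 0 lower in the same order of genotypes, with medians from -0.00035 to 0.22. Stat5a, a main transducer of GM-CSF, was the highest of those called throughout, at 0.99, and Stat3, the main transducer of G-CSF, was at 0.49. Beside these counts, 9.08% to 17.7% of all genes were called higher and 4.98% to 16.3% lower per genotype.

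Further genes of the family were followed in full. Il3ra, the IL-3 alpha chain, rose from a median of 0.909 CPM in sham to 2.16 CPM in TBI mice, an average log2 difference of 1.41 ± 0.14 (SE, adjusted p = 6.31e-13), on counts from 3 to 92 reads, and was called in 4 of 4 genotypes. Ptprz1, another receptor of IL-34 on astrocytes and precursors, rose by 0.26 ± 0.041 (SE, adjusted p = 2.85e-07), and was called in 2 of 4 genotypes. Sdc1, a proteoglycan that binds IL-34, was called in the average, at 0.59 ± 0.19 (SE, adjusted p = 0.00638), and in 0 of 4 genotypes, at medians of 0.553 CPM in sham and 0.858 CPM in TBI mice and at 0 in the lowest sham mouse. Of the receptor kinases related to CSF1R, Flt3 fell in the average, at -0.33 ± 0.053 (SE, adjusted p = 3.47e-07), with a call in 2 of 4 genotypes, and Kit did not pass the test at 0.088 ± 0.045 (SE, adjusted p = 0.0935). Csf2, Csf3, Il3, Il5 and Il5ra, the other ligand and receptor genes of the family, were not analysed here.

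Markers of the cells that could carry these transcripts rose beside them. Of 9 markers of border and infiltrating macrophages and monocytes, 5 or 6 were called higher per genotype and 0 lower. Ms4a7, a border macrophage marker, had a mean log2 difference of 3.53, Ccr2, the monocyte chemokine receptor, of 2.70 and Plac8 of 3.56. These 3 were the markers of the list called in all 4 genotypes. The levels were low, with Ccr2 at a median of 0.339 CPM in sham mice and at 0 in the lowest. In E4/Abca1+/- mice the log2 differences of the 9 markers ran from -0.61 to 5.04. The summed level of the 9 was 5.01 to 22.4 CPM in sham and 6.97 to 49.0 CPM in TBI mice, so the ranges overlapped. Of 10 astrocyte markers 8 or 9 were called higher per genotype, with Vim at 2.52 and Gfap at 2.37. Of 10 endothelial and mural markers 0 to 4, and of 10 oligodendrocyte markers 0 to 5, were called higher, with none lower. Of the tissue markers, 0 to 2 of 10 hippocampus markers and 3 to 6 of 10 cortex markers were called lower per genotype, and at most 1 higher in either list. Beside these lists, 9.08% to 17.7% of all genes were called higher and 4.98% to 16.3% lower per genotype. The hippocampus counts lie about the share called lower. The part of any of these cells or regions in the values of the axis was not tested.

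Abca1 copy number was then compared at fixed isoform and injury. With 1 copy against both copies, 0 of the 6 genes were called in any of the 4 comparisons, beside 2.2% of all genes in E3 sham, 0.178% in E3 TBI, 0.903% in E4 sham and 1.39% in E4 TBI mice. Depth differed with the Abca1 genotype, and with all libraries thinned to the lowest total again none of the 6 genes was called. The base composition of the libraries differed too. Its medians in E3/Abca1+/+ and E3/Abca1+/- mice were -0.00409 and 0.258 in sham and -0.0843 and 0.152 in TBI mice. Copy number therefore cannot be told apart from other differences between these libraries. In E3 mice the 6 log2 differences ran from -0.22 to 0.24 in sham and from -0.13 to 0.19 in TBI mice. With the base composition of each library as a covariate, added after seeing the data and defined beside Csf2ra, they ran from -0.68 (Csf2rb) to 0.11 in sham and from -0.59 (Csf2rb) to 0.065 in TBI mice, and none was called. In E4 sham mice they ran from -0.19 for Csf2rb to 0.16 for Csf1r, the latter at an unadjusted p of 0.0285 (adjusted p = 0.253). Without mouse 2 of the E4/Abca1+/- sham group Csf2rb was at -0.41, Csf1r at 0.12 and Csf1 at 0.035 in place of 0.096.

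In injured E4 mice Csf1 and Csf1r were among 2765 of all 15171 genes with an unadjusted p under 0.05 in edgeR's quasi-likelihood test. The Csf1 medians were 37.4 and 58.6 CPM in E4/Abca1+/+ and E4/Abca1+/- TBI mice, a log2 difference of 0.34 ± 0.16 (SE, unadjusted p = 0.0466, adjusted p = 0.265). The Csf1r medians were 219 and 279.5 CPM, a difference of 0.29 ± 0.12 (SE, unadjusted p = 0.0262, adjusted p = 0.206). The groups overlapped for both genes, and neither passed edgeR's quasi-likelihood test after adjustment over all genes. In 1 fit over all 58 mice, which shares the spread among the 8 groups, Csf1r was called at 0.30 (adjusted p = 0.0333). Over the 15 fits without 1 mouse neither gene was called. Csf1 ran from 0.28 to 0.465 (adjusted p from 0.0683 to 0.457) and Csf1r from 0.23 to 0.35 (adjusted p from 0.10 to 0.37). The remaining genes gave -0.076 ± 0.063 (SE, adjusted p = 0.554) for Il34, 0.11 ± 0.12 (SE, adjusted p = 0.684) for Csf2ra, 0.37 ± 0.32 (SE, adjusted p = 0.576) for Csf2rb and 0.26 ± 0.20 (SE, adjusted p = 0.514) for Csf3r. Over the 15 fits without 1 mouse these ran from -0.13 to -0.051 for Il34, from 0.054 to 0.21 for Csf2ra, from 0.23 to 0.66 for Csf2rb and from 0.15 to 0.45 for Csf3r, with none called.

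The isoforms were compared in the same way, in comparisons that share their groups with those of Abca1. Again 0 of the 6 genes were called, beside 0.349% of all genes in Abca1+/+ sham, 0.211% in Abca1+/+ TBI, 5.13% in Abca1+/- sham and 2.9% in Abca1+/- TBI mice. In Abca1+/+ mice the log2 differences of E4 against E3 ran from -0.26 to 0.21 in sham and from -0.14 to 0.059 in TBI mice. In Abca1+/- sham mice Csf1 differed by 0.18 ± 0.068 (SE, unadjusted p = 0.0176, adjusted p = 0.128) and Csf1r by 0.12 ± 0.056 (SE, unadjusted p = 0.0449, adjusted p = 0.205). Without mouse 2 of the E4/Abca1+/- sham group these were 0.12 (adjusted p = 0.231) and 0.079 (adjusted p = 0.372). Of all genes, 3526 had an unadjusted p under 0.05 between isoforms in Abca1+/- sham and 2833 in Abca1+/- TBI mice. In Abca1+/- mice Csf1r differed by 0.33 ± 0.10 (SE, unadjusted p = 0.00478, adjusted p = 0.0867) after TBI, at medians of 215 CPM in E3 and 279.5 CPM in E4, and Csf1 by 0.29 ± 0.14 (SE, unadjusted p = 0.0497, adjusted p = 0.267), both short of the threshold. Csf1r passed it with DESeq2's Wald test (0.34, adjusted p = 0.0291) and in 1 fit over all mice (0.35, adjusted p = 0.0223). Csf1r did not pass without mouse 8 of the E4/Abca1+/- TBI group (0.28, adjusted p = 0.117) or with the base composition covariate (0.43, adjusted p = 0.326). The base composition measure ran from 0.117 to 0.284 in E3/Abca1+/- and from -0.255 to 0.0893 in E4/Abca1+/- TBI mice. Isoform and base composition therefore cannot be told apart between these groups. The E3/Abca1+/- and E4/Abca1+/- TBI values of Csf1r overlapped, at 195 to 247 and 212 to 352 CPM.

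**Figure D4:**
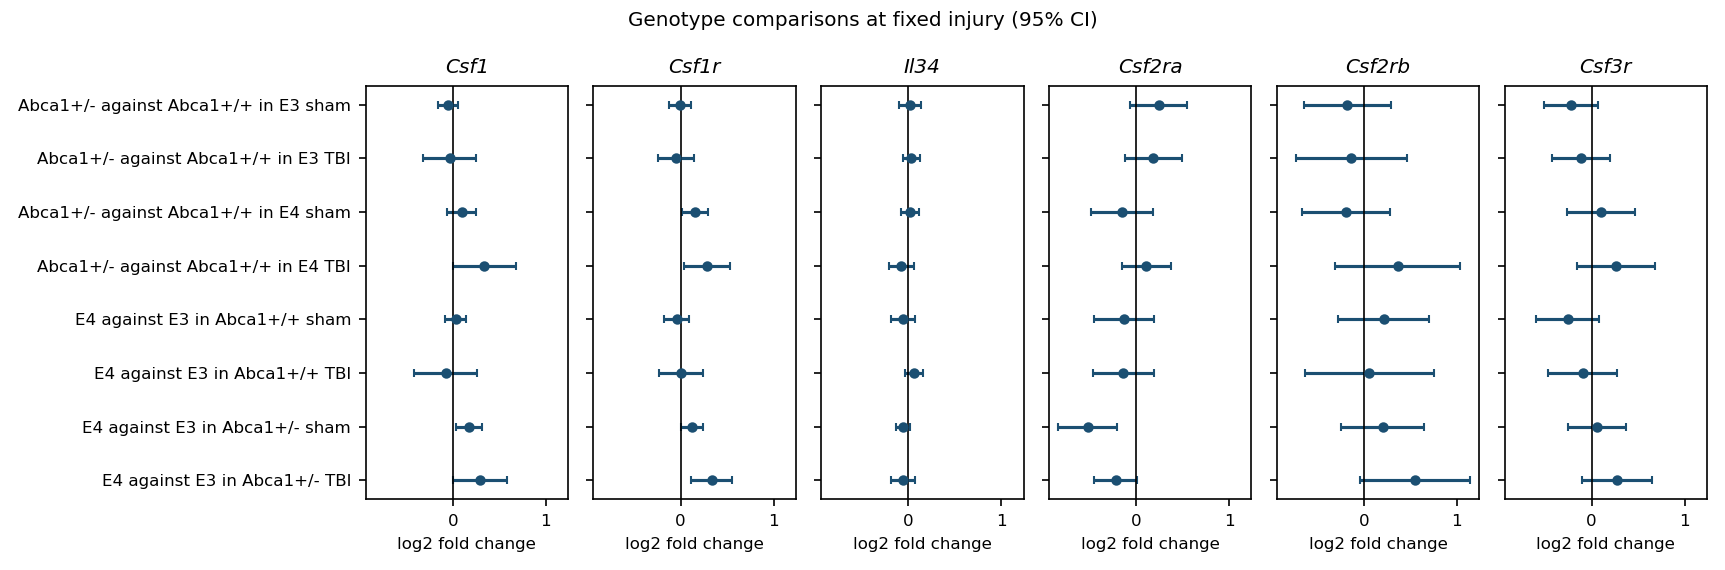
Log2 fold change with 95% confidence interval for each gene in the 4 comparisons of Abca1 copy number and the 4 of APOE isoform, a panel per gene. Of 48 intervals, 3 of Csf1 and 4 of Csf1r lie above 0. Below 0 lies 1 interval of Csf2ra, for E4 against E3 in Abca1+/- sham mice. None of these differences passed after adjustment. Between 1093 and 3526 of all 15171 genes per comparison had an unadjusted p under 0.05 by edgeR's quasi-likelihood fit. Intervals clear of 0 are therefore not particular to these genes, and the comparisons share groups.

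Csf2ra came nearest to a call between isoforms, in Abca1+/- sham mice. It was at 12.2, 14.4 and 17.4 CPM (lowest, median and highest) in E3 and at 6.56, 9.16 and 15.6 CPM in E4 mice, and the log2 difference of E4 against E3 was -0.52 ± 0.15 (SE, unadjusted p = 0.003, adjusted p = 0.0541). The call was made with DESeq2's Wald test (adjusted p = 0.0124), with sex as a covariate (adjusted p = 0.0155) and in 1 fit over all mice (adjusted p = 0.0335). The level of Csf2ra moved with the base composition of each library. As a measure of the latter, chosen after seeing the data, the rank correlation over 13261 genes between each mouse's expression, relative to the mean of all mice, and transcript GC content was taken. It had medians of 0.258 (range 0.131 to 0.438) in E3/Abca1+/- sham and -0.199 (range -0.373 to 0.160) in E4/Abca1+/- sham mice. Across 58 mice, the deviations of Csf2ra from its group means had a Pearson r of 0.646 and a Spearman rho of 0.567 with those of this measure (two-sided permutation test within groups, 100000 resamples, adjusted over the 6 genes, p = 6e-05 and 0.0003). Leaving out the 2 mice most distant from the median of the measure gave an r of 0.623, and r was 0.598 in Abca1+/+ and 0.717 in Abca1+/- mice, against r of -0.014 to 0.161 over all mice for the other 5 genes, none of which passed this test. With the measure as a covariate the isoform difference of Csf2ra was -0.014 (adjusted p = 0.993). Since the measure itself nearly separates these groups, isoform and base composition cannot be told apart here. The TBI calls of Csf2ra were kept under the same covariate, at 0.56, 0.59, 0.40 and 0.65 in E3/Abca1+/+, E3/Abca1+/-, E4/Abca1+/+ and E4/Abca1+/- mice, with adjusted p-values from 0.00027 to 0.0209.

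**Figure D5:**
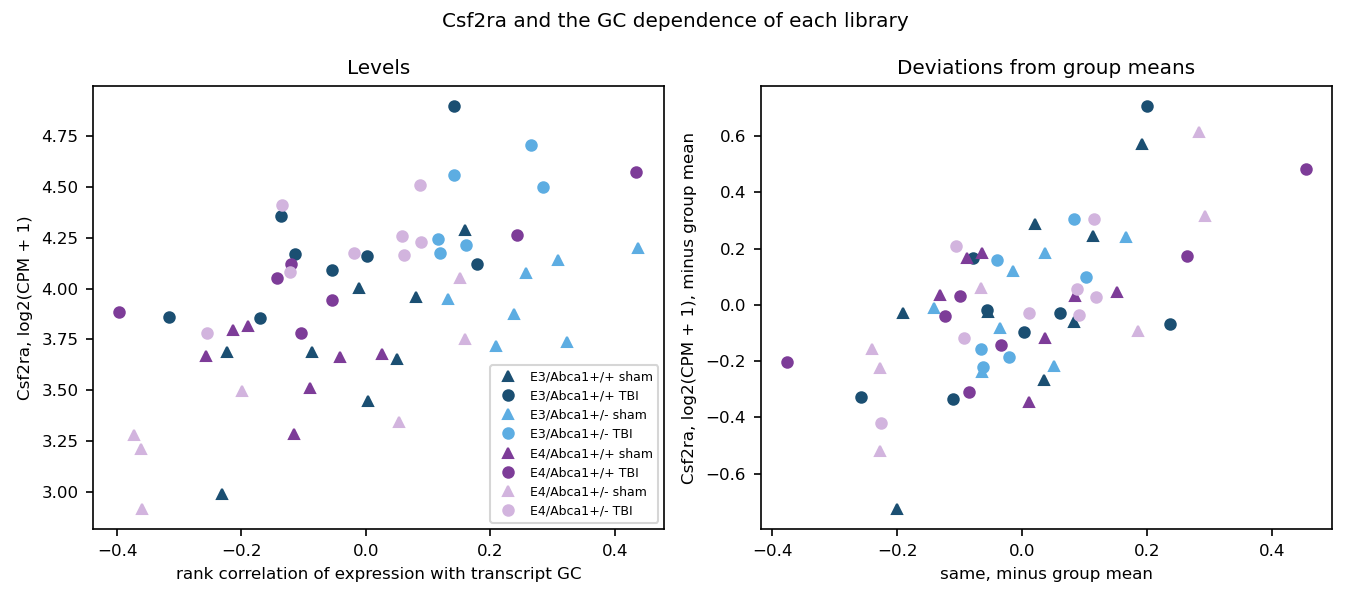
Left, log2(CPM + 1) of Csf2ra in each mouse against the rank correlation of that mouse's expression with transcript GC content; right, both as deviations from the group means. Triangles are sham and circles TBI mice, colours are genotypes, and the deviations have a Pearson r of 0.646 over 58 mice.

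Whether injury acted differently by genotype was tested with interaction terms, and 0 of the 6 genes were called in any of the 4, as were 0% of all genes. With edgeR's quasi-likelihood test the unadjusted p was under 0.05 for 326 and 735 genes in the Abca1 by injury interactions of E3 and E4, and 321 and 962 in the isoform by injury interactions of Abca1+/+ and Abca1+/- mice, while DESeq2's Wald test called 0, 0, 0 and 3 genes. The members' terms ran from -0.059 to 0.10 for Abca1 in E3, from -0.086 to 0.56 for Abca1 in E4, from -0.15 to 0.16 for isoform in Abca1+/+ and from 0.015 to 0.36 for isoform in Abca1+/- mice. The intervals were wide. For Csf2rb the Abca1 by injury term in E4 was 0.56 (95% confidence interval -0.36 to 1.48, adjusted p = 0.954) and for Csf1r the isoform by injury term in Abca1+/- mice was 0.23 (95% confidence interval -0.026 to 0.49, adjusted p = 0.81).

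Females and males were compared over all groups. Csf1r was the 1 gene of the 6 called, higher in females by 0.13 (95% confidence interval 0.043 to 0.22, adjusted p = 0.0477) on the log2 scale, beside 10.1% of all genes in either direction. The call was lost at an adjusted p of 0.0650 without mouse 8 of the E4/Abca1+/- TBI group and of 0.0507 with all libraries thinned. Without mouse 2 of the E4/Abca1+/- sham group Csf2rb was called too, at 0.39 (adjusted p = 0.0474) against 0.33 ± 0.14 (SE, adjusted p = 0.13) with all mice. Csf1r medians were 125 CPM in 14 female and 122 CPM in 15 male sham mice, and 263 and 212 CPM in 14 female and 15 male TBI mice. The sexes were close in sham mice and the female median was the higher after TBI.

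The sex by injury term was positive for 5 of the 6 genes but called for none, as for 0% of all genes, with 1133 genes at an unadjusted p under 0.05 and 1 called by DESeq2's Wald test. The term was 0.92 ± 0.27 (SE, unadjusted p = 0.00144, adjusted p = 0.335) for Csf2rb and 0.24 ± 0.085 (SE, unadjusted p = 0.00783, adjusted p = 0.453) for Csf1r. It was 0.29 ± 0.12 (SE, unadjusted p = 0.0181, adjusted p = 0.511) for Csf1 and 0.41 ± 0.17 (SE, unadjusted p = 0.0213, adjusted p = 0.542) for Csf3r. Csf2rb medians were 1.36 CPM in 14 female and 1.47 CPM in 15 male sham mice, and 7.57 and 4.77 CPM in 14 female and 15 male TBI mice. Csf1 medians were 25.9 CPM in 14 female and 25.8 CPM in 15 male sham mice, and 52.2 and 40.1 CPM in 14 female and 15 male TBI mice. Csf3r medians were 5.77 CPM in 14 female and 5.93 CPM in 15 male sham mice, and 22.0 and 18.1 CPM in 14 female and 15 male TBI mice. In all 3 the sham medians of the sexes were close and the female TBI median was above the male one, with the ranges of the sexes overlapping.

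Within groups, the genes of the axis varied together in part. After subtracting the group means of log2(CPM + 1), a correlation was computed for each of the 15 pairs across the 58 mice. Of the pairs, 6 passed a two-sided permutation test within groups (100000 resamples, Benjamini-Hochberg over the pairs). These were the pairs among Csf1, Csf1r, Csf2rb and Csf3r, with Pearson r from 0.631 to 0.738, Spearman rho from 0.512 to 0.689, adjusted p of 7.5e-05 or less for r and 0.00043 or less for rho, and r from 0.530 to 0.716 without the 2 mice farthest from the median. The smallest p these permutations can give is 1e-05. In Abca1+/+ mice, the shallower libraries, r ran from 0.684 to 0.815 and in Abca1+/- mice from 0.561 to 0.755. The relation was looser in sham mice: r was 0.124 between Csf1 and Csf1r over 29 sham and 0.771 over 29 TBI mice, and 0.642 and 0.762 between Csf1r and Csf3r. Csf1 also spread less in sham groups, with a coefficient of variation of 5.17% to 12.0% against 17.5% to 30.3% in TBI groups. For Csf1r, Csf2rb and Csf3r these ranges overlapped between sham and TBI groups. The part of spread in the lower r was not tested. No pair with Il34 or Csf2ra passed, the nearest being Csf1 with Il34 by Pearson r (-0.249, adjusted p = 0.119 by the permutation test) and Csf1 with Csf2ra by Spearman rho (0.248, adjusted p = 0.146 by the permutation test). All genes of a mouse come from 1 library and 1 piece of tissue, so these values also carry the makeup of that piece.

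The genes whose deviations were most like each member's, among 14380 genes with a mean of at least 1 CPM, are given as a description. Among those most like Csf1r were C3ar1 (r = 0.881), a complement receptor, Vsir (0.878), Adgre1 (0.875), which encodes F4/80, and Epb41l2 (0.872). Among those most like Csf3r were C3ar1 (0.803), Ptprc (0.769), which encodes CD45, Inpp5d (0.769) and Itgb2 (0.767). Csf2rb was most like Lgals3 (0.858), which encodes galectin-3, the cathepsins Ctsb (0.852), Ctsd (0.843) and Ctsz (0.828), and Lyz2 (0.838), the lysozyme of myeloid cells. Csf1 was also most like Lgals3 (0.885), followed by Tmem176b (0.871), Cd9 (0.868), Cnn3 (0.866) and Chil1 (0.865).

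Il34 and Csf2ra had other and looser neighbours. Among those most like Il34 were Dmtn (0.703), Cx3cl1 (0.625), the neuronal chemokine that microglia sense through CX3CR1, Cenpq (0.603) and Dpp9 (0.588). Csf2ra was most like Scrib (0.711), Dus3l (0.709), Tmem191c (0.708), Col16a1 (0.692) and Atxn2l (0.683). The longest transcripts of these 5 had a GC content of 57.2% to 61.4%, and that of Csf2ra 61.5%, where the median of 13931 genes was 50.3%.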

How the data were processed

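Counts per gene of 58 mouse brain libraries were used as the authors deposited them, whole numbers without normalization. They were made with Subread 1.5.0 and its featureCounts program on the build mm10 per the submitters' processing notes, and the annotation and the settings for strand and reads with several matches are not given in the sources used here. Before use, 2 blank lines were removed, 23 symbols that a spreadsheet had turned into dates were restored from their gene identifiers, 0 columns were left unmapped, and 0 of 183 pairs of mice within groups held identical values. Replicate numbers only name mice and pair none.

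Counts were scaled with TMM factors (0.954 to 1.04) and tested with edgeR's quasi-likelihood test (edgeR 4.0.16, R 4.3.3), Benjamini-Hochberg adjusted over all 15171 genes, called at 0.05. Each comparison was fitted on its own groups, interactions on their 4 groups, and the average over genotypes and the sex terms on all 58 mice. edgeR's filterByExpr over the 8 groups removed 0 genes. Intervals are 95%. The pipeline was tested on simulated counts.

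The 6 members and all lists were chosen with earlier results of these data known. Named are the members, the further receptor family in full, from each list the 3 genes with the largest mean change among those called in all 4 genotypes, and the 5 genes most like each member by Pearson r of log2(CPM + 1), with a pseudocount of 1, after subtracting group means. Hmgxb3 was added after seeing which genes overlap. A few genes that these rules name are not reported here.

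Alternatives were DESeq2 1.42.0 (size factors, Wald test), no filter, 1 CPM in 6 mice, sex as a covariate, all libraries thinned to the lowest total, 1 fit over all mice, and each mouse left out in turn in the comparisons of TBI against sham and of Abca1 in TBI mice. A GC covariate and further fits without mouse 8 of E4/Abca1+/- TBI or mouse 2 of E4/Abca1+/- sham were added after seeing the data. Lengths, exons, GC content and the coding sequences came from GENCODE M21 (GRCm38), upstream sequences from RefSeq (GRCm38.p6). Python 3.11.15 with pandas 2.3.3, scipy 1.17.1 and matplotlib 3.10.9 was used for description and plots.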

Additional observations from a re-analysis of the deposited data

Results flagged for a closer look

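Each of the 6 genes was searched in each of the 8 groups for a mouse far from the others of its group by Dixon's criterion, and 5 values, from 4 mice, stood out among 48 tests, of which chance alone gives about 1 in 20. Csf1r was at 92.4 CPM in mouse 4 of the E4/Abca1+/+ sham group, below the next mouse at 114 CPM. Il34 was at 73.5 CPM in mouse 8 of the E4/Abca1+/- TBI group, above the next at 61.1 CPM. Csf2ra was at 28.8 CPM in mouse 8 of the E3/Abca1+/+ TBI group, above the next at 19.5 CPM. Mouse 2 of the E4/Abca1+/- sham group stood out for Csf2rb, at 2.69 CPM before 1.66 CPM, and for Csf3r, at 8.84 CPM before 6.04 CPM. No interaction term of a member was called.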

How the results depend on the processing

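The calls of Csf1, Csf1r, Csf2rb and Csf3r with TBI kept their direction and passed the threshold in all 4 genotypes and in their average under every setting tried and in every fit without 1 mouse. Each mouse was left out in turn in TBI against sham per genotype and in the Abca1 comparisons of TBI mice, and elsewhere only mouse 2 of E4/Abca1+/- sham and mouse 8 of E4/Abca1+/- TBI, where they belong to the groups compared. The members called went from 0 to 1 in E4/Abca1+/- against E4/Abca1+/+ TBI mice (Csf1r, 1 fit over all mice), in E4 against E3 Abca1+/- sham mice (Csf2ra, DESeq2's Wald test, sex covariate and 1 fit) and in E4 against E3 Abca1+/- TBI mice (Csf1r, DESeq2's Wald test and 1 fit), and from 1 to 0 between the sexes with thinning. Fits without 1 mouse gave 0 to 2 members called between the sexes. The cause was not tested in any of these, and the values stand beside the results.

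Some differences that were not called changed sign, with none called after the change. With thinning, log2 values were 0.038 for Csf1 and -0.044 for Il34 (Abca1 in E3 sham), -0.027 for Csf2ra (Abca1 in E4 TBI), -0.087 for Csf1 and 0.012 for Csf2ra (Abca1 by injury in E3), 0.059 for Csf2ra (isoform by injury in Abca1+/+), -0.027 for Il34 (isoform by injury in Abca1+/-) and -0.013 for Il34 between the sexes. With the GC covariate they were -0.0025 for Il34 (TBI in E4/Abca1+/+), -0.30 and -0.18 for Csf2ra (Abca1 in E3 sham and E3 TBI), 0.051 for Csf2ra (isoform in Abca1+/+ sham), and 0.046 for Il34 and 0.044 for Csf2ra (isoform in Abca1+/- TBI). The sex covariate gave -0.0088 for Csf2rb (Abca1 by injury in E3), and DESeq2's Wald test 0.0017 for Csf2ra (isoform by injury in Abca1+/+).

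Fits without 1 mouse ran from -0.087 to 0.053 for Csf1, -0.084 to 0.013 for Csf1r and -0.32 to 0.060 for Csf2rb (Abca1 in E3 TBI). Without mouse 2 of E4/Abca1+/- sham, Csf3r was at -0.039 (Abca1 in E4 sham) and Csf2rb and Csf3r at -0.016 and -0.082 (isoform in Abca1+/- sham). Without it or mouse 8 of E4/Abca1+/- TBI, Il34 ran from -0.035 to 0.016 (isoform by injury in Abca1+/-) and from -0.013 to 0.0027 between the sexes.

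Counts over all genes moved more. Genes called were 3607 in E3/Abca1+/- TBI against sham and 2340 with thinning. For Abca1 they were 334 (1 with the GC covariate to 730 with DESeq2's Wald test) in E3 sham, 27 (1 to 169, the same settings) in E3 TBI, 137 (58 with thinning to 447 with DESeq2's Wald test) in E4 sham and 211 (70 with thinning to 1359 in 1 fit) in E4 TBI mice. For isoform they were 53 (up to 118 with DESeq2's Wald test), 32 (up to 91 in 1 fit), 779 (16 with the GC covariate to 1369 with DESeq2's Wald test) and 440 (16 to 919, the same settings) in Abca1+/+ sham, Abca1+/+ TBI, Abca1+/- sham and Abca1+/- TBI mice. Without 1 mouse the genes called for Abca1 ran from 7 (without E3/Abca1+/- TBI mouse 3, among others) to 39 in E3 TBI and from 40 (without E4/Abca1+/+ TBI mouse 3) to 786 (without E4/Abca1+/+ TBI mouse 6) in E4 TBI mice. Without mouse 2 of E4/Abca1+/- sham they were 52 for Abca1 in E4 sham and 384 for isoform in Abca1+/- sham mice. Depth limits Csf2rb most, with 3 reads in the lowest library. With a pseudocount of 0.1, 4 or 5 of the 5 most alike genes were shared for each member. No paired analysis was possible because the replicate numbers only name mice.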
